A study of Oryctolagus cuniculus with 3 samples.

Results

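Metalloproteinases are zinc-dependent enzymes that cut matrix proteins or release proteins from the cell surface, and the tissue inhibitors of metalloproteinases (TIMPs) block them. The genes described here were chosen by name: matrix metalloproteinases (MMP), membrane-anchored disintegrin metalloproteinases (ADAM), their secreted relatives with thrombospondin repeats (ADAMTS), the ADAMTS-like proteins (ADAMTSL) and the TIMPs. This gave 66 of the 20536 gene names in the tables: 20 MMP, 20 ADAM, 19 ADAMTS, 3 ADAMTSL and 4 TIMP genes. RNA was sequenced from RCE1(5T5), a cell line of rabbit corneal epithelium, in 3 libraries: 1 of non-differentiated cells (day 4), 1 of committed cells (day 6) and 1 of terminally differentiated cells (day 10). All 3 cultures shared serum, insulin, transferrin, hydrocortisone, triiodothyronine, cholera toxin, adenine and epidermal growth factor, and all grew on feeder cells: mouse 3T3 fibroblasts, stopped with mitomycin C and removed with EDTA ahead of RNA extraction. No genotype, strain or further treatment is given.

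In corneal epithelium, secreted MMPs are known for remodelling the basement membrane and the stroma beneath it after wounding, and ADAM enzymes for shedding growth factors, adhesion proteins and Notch receptors. Most MMPs are made as inactive precursors that plasmin, furin-type proteases or other MMPs open. RNA level therefore says nothing of enzyme activity, and what follows is RNA only.

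The libraries held 10171693, 12582706 and 10899578 fragments on days 4, 6 and 10. Levels are fragments per 1e6 (CPM, scaled between libraries), and levels of different genes are set side by side only in the authors' length-normalized unit TPM. Genes with 1 CPM or more in any library count as measured. The words rose and fell mark a difference of log2(CPM + 1) of 2-fold or more, and calls below refer to this scale, which understates the change of low genes. Single folds are ratios of CPM without the added 1, so a ratio above 2 can miss the call, and in low genes one above 3. Brackets give the 95% Clopper-Pearson interval of a ratio of CPM. As each stage has a single library, nothing has a replicate check or a test, the brackets cover counting error only, and stage, day and library cannot be told apart. In bulk RNA, fewer cells of a type and less RNA per cell cannot be told apart either. Markers of corneal and stratified epithelium were present. KRT3, the corneal keratin, was at 149.6, 954 and 2018 CPM, PAX6 at 42.2, 127.1 and 358 CPM, and KRT5 between 13552 and 23374 CPM. Of 13 measured markers (a list of 15), 7 (53.8%) rose by day 6, 5 (38.5%) after it and 7 (53.8%) from day 4 to day 10. Of all measured genes 8.06%, 8.25% and 17.1% rose. In each comparison 0 markers fell, beside 6.73%, 7.1% and 15.8% of all measured genes. Their summed level was 19560, 30033 and 21049 CPM.

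Of the 66 genes, 43 were measured: 16 MMPs, 9 ADAMs, 13 ADAMTS, 2 ADAMTSL and 3 TIMPs. Another 10 had fragments but stayed under 1 CPM, namely ADAM1A, ADAM21, ADAM22, ADAM33, ADAMTS13, ADAMTS17, ADAMTS18, ADAMTS19, ADAMTS20 and ADAMTSL3. No fragment was counted in any library for ADAM2, ADAM6, ADAM6A, ADAM7, ADAM11, ADAM18, ADAM30, ADAMTS8, MMP20, MMP21, MMP25, MMP26 and TIMP4. A count of 0 allows up to 3 fragments per library, or 0.275, 0.249 and 0.283 CPM on days 4, 6 and 10. Of 8 ADAMs known from the reproductive tract, 6 are in this last group and ADAM1A and ADAM21 had 1 fragment each. MMP20, known as an enamel protease of teeth, is in it too.

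Together the 66 genes took 0.0675% of all TPM on day 4, 0.0461% on day 6 and 0.055% on day 10. TIMP2 was the highest of them in every library, with 103.8, 61.4 and 83.5 TPM, ranks 1451, 1785 and 1278 among all gene names. Behind it came MMP28 (69.5 TPM) and MMP1 (59.6 TPM) on day 4, ADAM9 (52.2 TPM) and MMP14 (52 TPM) on day 6, and ADAM9 (68.8 TPM) and TIMP1 (54 TPM) on day 10. A few genes made up most MMP RNA: the 4 highest MMPs held 76.7%, 74.2% and 70.1% of the summed MMP TPM on days 4, 6 and 10. MMP28, MMP1 and MMP14 were among these 4 at every stage, and the other was MMP2 on days 4 and 6 and MMP13 on day 10.

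**Figure D1:**
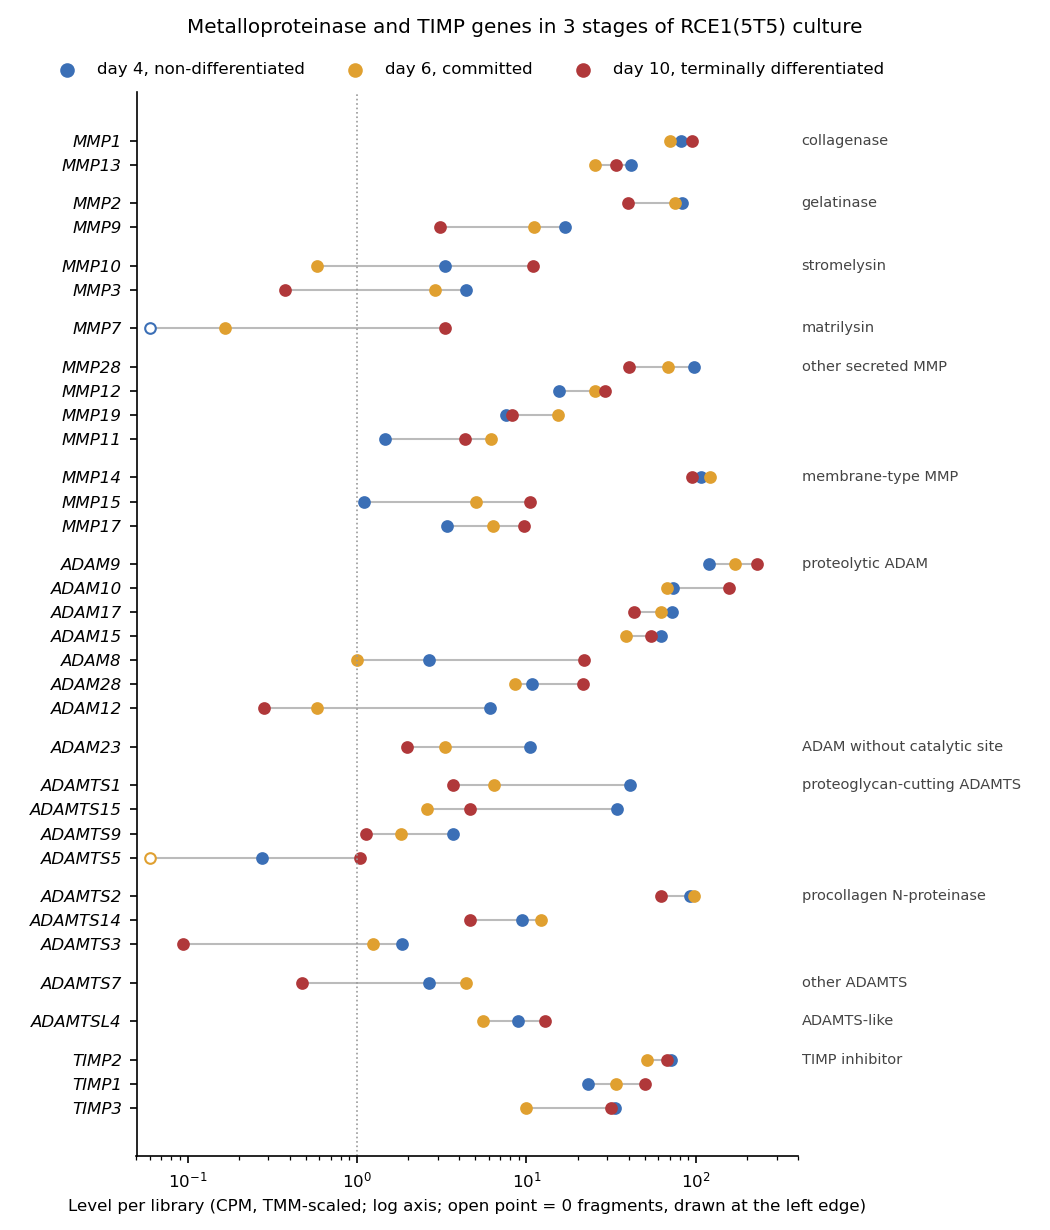
Level of 34 metalloproteinase and TIMP genes (rows, grouped by role) on days 4, 6 and 10, in CPM on a log axis, with 1 library per point. ADAMTS1 and ADAMTS15 lie far to the right on day 4, ADAM8, MMP7, MMP10 and MMP15 on day 10, while MMP1 and MMP14 stay within a narrow range.

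From day 4 to day 6, 2 of the 43 measured genes (4.65%) rose and 6 (14%) fell, against a background of 8.06% of all 12818 measured genes that rose and 6.73% that fell. The risers were MMP11 and MMP15; the fallers were ADAM12, ADAM23, ADAMTS1, ADAMTS15, MMP10 and TIMP3. From day 6 to day 10, 8 (18.6%) rose and 5 (11.6%) fell, beside 8.25% and 7.1% of all measured genes. ADAM8, ADAM10, ADAM28, ADAMTS5, ADAMTSL4, MMP7, MMP10 and TIMP3 rose, and ADAMTS3, ADAMTS7, ADAMTS14, MMP3 and MMP9 fell. Over the whole interval from day 4 to day 10, 8 (18.6%) rose, near the background of 17.1%, and 11 (25.6%) fell, beside 15.8% of all measured genes. The median difference of the 43 was -0.16, -0.21 and -0.16 on the log2(CPM + 1) scale in the 3 comparisons, where that of all measured genes was 0.00, -0.01 and 0.01. The median after day 6 turned to 0.15 with TPM and to 0.29 with a minimum of 5 CPM, and was 0 with no minimum.

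Scaling changed these splits. With the authors' TPM, where 33 of the genes reached 1 TPM, 1 rose and 8 fell by day 6, 6 rose and 1 fell after it, and 3 rose and 9 fell over the whole interval. Of the 33, 24.2% fell by day 6 beside 13.2% of all genes measured in TPM, 18.2% rose after it beside 7.31%, and 27.3% fell over the whole interval, near the 23.9% of all genes. With library size alone the whole interval gave 6 (14%) up and 14 (32.6%) down, beside 15% and 19% of all measured genes. None of the called genes changed direction under either scaling or with DESeq2 size factors. The calls of low genes hung on the pseudocount: with 5 in place of 1, ADAM12, ADAM23, MMP10, MMP11 and MMP15 were no longer called by day 6, and ADAM28, MMP7, MMP9, MMP3, ADAMTSL4 and the 4 ADAMTS genes after it.

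On the log2(CPM + 1) scale 0 of the 43 rose at both steps and 0 fell at both, beside 1.6% and 1.1% of all measured genes. This rests on the calls. Without a call after day 6, MMP15 was 2.07-fold higher [1.5 to 2.87] on day 10 than on day 6. ADAMTS1 was 1.76-fold lower [1.18 to 2.66]. ADAM12, ADAM23, ADAMTS1 and ADAMTS15 fell by day 6 and neither rose nor fell afterwards. ADAMTS3, ADAMTS7, ADAMTS14, MMP3 and MMP9 fell after day 6, and with TPM MMP9 passed 2-fold downwards by day 6 as well. ADAM8, ADAM10, ADAM28, ADAMTS5, ADAMTSL4 and MMP7 rose after day 6, while MMP11 and MMP15 rose by day 6. MMP10 and TIMP3 fell and then rose, a course that 0.5% of all measured genes took. In 24 of the 43, or 55.8%, neither step reached 2-fold, beside 73.5% of all measured genes.

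**Figure D2:**
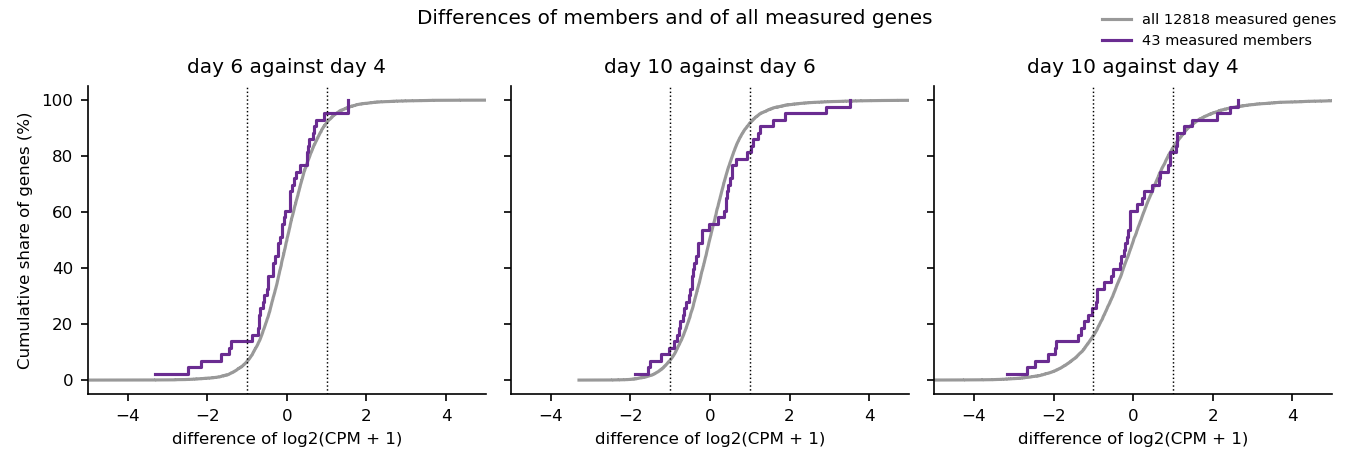
Cumulative share of genes (percent) against the difference of log2(CPM + 1), for the 43 measured members (purple) and all 12818 measured genes (grey), in the 3 comparisons; dotted lines mark 2-fold. The purple curve lies left of the grey one at its middle in each panel, with medians of -0.16, -0.21 and -0.16, and right of it among the rises from day 6 to day 10.

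Most fibroblast markers fell from day 4 to day 10, and several of these genes fell too, at differing steps. Of 23 measured fibroblast and feeder markers (a list of 26), 0 rose and 9 (39.1%) fell by day 6. After it 1 rose and 10 (43.5%) fell, and over the whole interval 1 rose and 20 (87%) fell. Of all measured genes 8.06%, 8.25% and 17.1% rose and 6.73%, 7.1% and 15.8% fell in these comparisons. The riser was THY1. Their summed level was 8543 CPM on day 4, 5215 on day 6 and 3221 on day 10, and LUM had 0 fragments. Whether reads of the mouse feeder cells were kept apart is not given in the sources used here, and the part of fibroblast RNA in the falls of ADAMTS1, ADAMTS15, ADAM12, MMP2, MMP3 and ADAMTS14 was not tested. These genes differed in course. ADAMTS14 was highest on day 6, at 12.1 CPM, and MMP2 was at 82.3 and 75.6 CPM on days 4 and 6. ADAMTS15 was at 2.57 CPM on day 6 and 4.62 on day 10. Markers of blood cells were low: of 9 genes found, 2 were measured. TYROBP, FCER1G and CD163 had 0 fragments in all libraries and PTPRC had 16, 22 and 16, while CD68, which lysosomes of other cells also hold, was at 5.6, 25 and 68 CPM. Of metalloproteinases also known from blood cells, ADAM8, ADAM28 and MMP12 were highest on day 10, while MMP9 was lowest then. MMP25 and the neutrophil collagenase MMP8 had 0 fragments. The summed level of the 9 markers was 8.63, 27.5 and 70.4 CPM, and its increase was that of CD68, as PTPRC was at 1.47, 1.82 and 1.51 CPM.

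The collagenases, which make the first cut in fibrillar collagen, shifted little. MMP1 was at 81.9, 69.8 and 95.3 CPM on days 4, 6 and 10, with 842 or more fragments in each library. MMP13 was at 41.5, 25.3 and 33.6 CPM, lowest on day 6. No step reached 2-fold for either gene, although with TPM MMP13 passed 2-fold downwards by day 6. MMP8, the neutrophil collagenase, is listed under a name without symbol and had 0 fragments.

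The gelatinases, which digest denatured collagen and basement membrane type IV collagen, both fell from day 4 to day 10. MMP9, the gelatinase that corneal epithelium makes on wounding, was at 17 CPM on day 4, 11 on day 6 and 3.11 on day 10. It fell 5.46-fold [3.76 to 8.17] over the interval, of which the step after day 6 gave 3.55-fold [2.41 to 5.37]. Its 133 fragments on day 6 dropped to 33 on day 10. With TPM MMP9 also passed 2-fold downwards by day 6. MMP2, the gelatinase typical of stromal cells, was at 82.3, 75.6 and 39.6 CPM and fell 2.08-fold [1.85 to 2.34] from day 4 to day 10. Days 4 and 6 lay close together for MMP2, and the call was lost with a pseudocount of 5.

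The stromelysins MMP3 and MMP10, close relatives that cut many matrix proteins and open other MMPs, went opposite ways after day 6. MMP3 was at 4.41, 2.9 and 0.377 CPM, from 48 and 35 fragments to 4, and fell 7.71-fold [2.76 to 29.8] from day 6 to day 10, a call lost with TPM. MMP10, which migrating keratinocytes make at wound edges, was at 3.3, 0.581 and 10.9 CPM, from 36 and 7 fragments to 116. It fell 5.69-fold [2.5 to 15.2] by day 6 and then rose 18.8-fold [8.85 to 47.9]. Day 10 was thus the lowest stage for MMP3 and the highest for MMP10, and in TPM MMP3 and MMP10 were at 2.8 and 2.6 on day 4 and at 0.2 and 5.7 on day 10. MMP7, or matrilysin, a small MMP of glandular and mucosal epithelia, had 0, 2 and 35 fragments at the successive stages. It was at 3.3 CPM on day 10, at least 12-fold higher than on day 4.

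Among the other secreted MMPs, MMP28 fell and MMP11 rose. MMP28, or epilysin, an MMP of keratinocytes, was at 97.2, 68.8 and 40.5 CPM and fell 2.4-fold [2.14 to 2.69] from day 4 to day 10. Its 3 coding sequences, the protein versions listed for the gene, each had lower counts at each later stage. As protein versions of 1 gene often hold near-equal counts, this adds no separate support. MMP11, which furin opens inside the cell, was at 1.47, 6.14 and 4.33 CPM and rose 4.18-fold [2.41 to 7.69] by day 6, with its lowest stage on day 4. MMP12, best known as the elastase of macrophages, was at 15.5, 25.4 and 29.1 CPM, 1.88-fold higher [1.55 to 2.28] on day 10 than on day 4, which did not reach the threshold. MMP19 was highest on day 6, at 15.3 CPM against 7.62 on day 4 and 8.19 on day 10, and did not pass 2-fold on the log2(CPM + 1) scale at either step.

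Membrane-type MMPs sit on the cell surface. MMP14, which with TIMP2 as adaptor opens the MMP2 precursor, was at 106.6, 121 and 95.3 CPM with 1012 fragments or more in each library. The 3 stages lay close together: day 10 was 1.27-fold lower [1.17 to 1.38] than day 6. MMP15, its close relative, was at 1.1 CPM on day 4, 5.06 on day 6 and 10.5 on day 10, from 12 to 61 to 111 fragments. It rose 4.59-fold [2.45 to 9.37] by day 6 and 9.49-fold [5.22 to 18.9] by day 10. The call by day 6 was lost with TPM. MMP17, which is held by a lipid anchor, was at 3.4, 6.3 and 9.7 CPM and rose 2.86-fold [1.95 to 4.28] from day 4 to day 10, a call lost with TPM. MMP24 was at 8.35, 9.29 and 6.5 CPM and MMP16 at 2.66, 1.24 and 0.942 CPM. MMP14 held 41.4 of the 52.6 TPM of this group on day 10, where MMP15 was at 4.1 and MMP17 at 4.7 TPM.

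By the RefSeq gene table (assembly mOryCun1.1), MMP7, MMP20, MMP27, MMP8, MMP10, MMP1, MMP3, MMP12 and MMP13 follow each other in this order along chromosome 1. Between MMP20 and MMP27 lies 1 further coding gene with no symbol. Some neighbours differed in course and some did not. MMP10, MMP1 and MMP3 are next to each other, and from day 6 to day 10 MMP10 went from 7 to 116 fragments, MMP1 from 842 to 1012 and MMP3 from 35 to 4. MMP10 and MMP1 were both lowest on day 6 and, in CPM, highest on day 10. In TPM MMP1 was highest on day 4, at 59.6 against 52 on day 10. MMP27 and MMP8, placed by their gene numbers and not among the 66 genes, had 1 and 0 fragments in all.

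**Figure D3:**
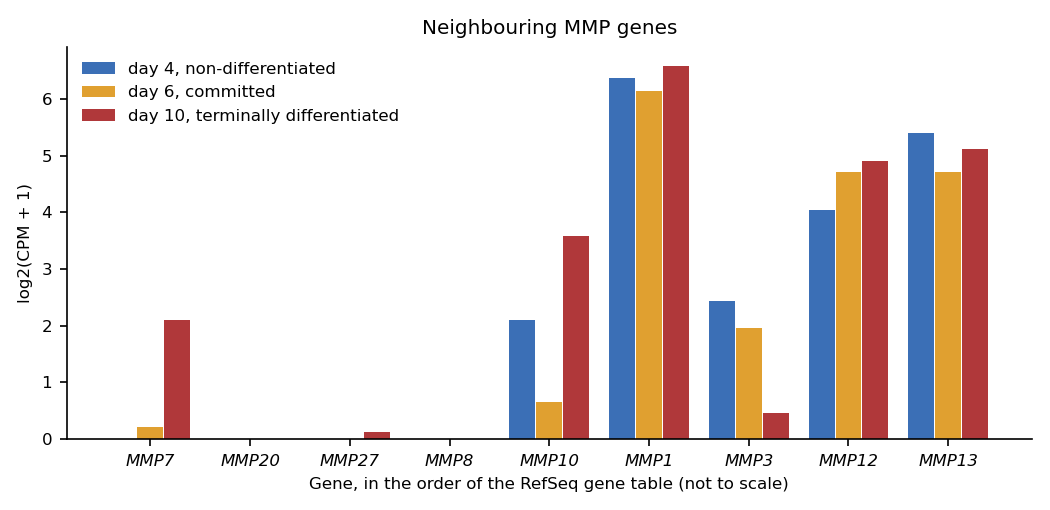
Level, as log2(CPM + 1), of 9 neighbouring MMP genes in their order in the RefSeq gene table, with 1 library per bar; the coding gene without symbol between MMP20 and MMP27 is not drawn. MMP10 and MMP7 are highest on day 10, MMP3 is lowest on day 10, and MMP1 between them differs little between stages.

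The ADAM sheddases release growth factors, Notch and adhesion proteins from the membrane. ADAM9 was the most abundant ADAM in TPM at each stage (46.2, 52.2 and 68.8 TPM) and was at 120.1, 171 and 229 CPM. It was 1.9-fold higher [1.78 to 2.04] on day 10 than on day 4, which did not reach the threshold. ADAM10, which cuts Notch receptors and E-cadherin, was at 73.1, 67.4 and 156 CPM and rose 2.32-fold [2.13 to 2.53] after day 6. Days 4 and 6 differed by 1.08-fold [0.981 to 1.2]. The later rise was past 2-fold with TPM too, but the difference from day 4 to day 10, at 2.14-fold [1.97 to 2.33], was not, nor was it with library size alone.

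ADAM17, which releases TNF and ligands of the EGF receptor, took the other course, with 72.1, 62 and 43.1 CPM. It was 1.67-fold lower [1.49 to 1.88] on day 10 than on day 4, short of the threshold, and past it with TPM. On day 4 ADAM10 and ADAM17 were at nearly the same level, 31.3 and 31.5 TPM. On day 10 they were at 53.4 and 14.5 TPM. ADAM15 was at 62.3, 38.4 and 54.4 CPM, lowest on day 6.

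ADAM8, best known in leukocytes, was at 2.66, 0.995 and 21.9 CPM, from 29 and 12 fragments to 232, and rose 22-fold [12.3 to 43.1] after day 6. The 4 coding sequences listed for ADAM8 had between 57.3 and 58.8 fragments each on day 10. ADAM28, first described in lymphocytes, was at 10.8, 8.54 and 21.7 CPM and rose 2.54-fold [2 to 3.23] after day 6. ADAM12, an ADAM of mesenchymal cells, was at 6.06, 0.581 and 0.283 CPM, from 66 fragments to 7 and 3, and fell 10.4-fold [4.79 to 27] by day 6. ADAM23, which has no catalytic site and acts in adhesion, was at 10.5, 3.32 and 1.98 CPM and fell 3.15-fold [2.18 to 4.64] by day 6. ADAM8 and ADAM28 were thus highest on day 10, ADAM12 and ADAM23 on day 4.

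ADAM10 travels to the cell surface bound to a tetraspanin of the TspanC8 group, and which of these it binds is known to steer what it cuts. Of this group TSPAN15 rose at both steps, from 4 to 73 to 311 fragments or 0.367, 6.05 and 29.3 CPM. The first step was 16.5-fold [6.17 to 62.1] and the second 4.84-fold [3.74 to 6.33]. TSPAN5 went the other way, from 39 to 21 to 0 fragments, at least 12.7-fold lower on day 10 than on day 4. TSPAN14 was at 31.8, 32.2 and 45.9 CPM, TSPAN17 at 41.8, 48.4 and 30.2 CPM and TSPAN33 at 0.734, 0.663 and 1.13 CPM, none of them past 2-fold. The partners of ADAM17 shifted less: the inactive rhomboids RHBDF1 and RHBDF2, which carry ADAM17 to the surface, lay between 72.4 and 79.8 CPM and between 34.9 and 38.1 CPM, and FRMD8, which stabilizes them, between 41.9 and 54.8 CPM.

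The ADAMTS enzymes that cut the proteoglycans aggrecan and versican stood lower from day 6 on. Their summed level over 7 genes was 31 TPM on day 4, 3.6 on day 6 and 3.3 on day 10, or 85.9, 16.6 and 13.6 CPM. ADAMTS1 was at 41, 6.47 and 3.67 CPM, or 447, 78 and 39 fragments, and fell 6.34-fold [4.98 to 8.17] by day 6. ADAMTS15 was at 34.4, 2.57 and 4.62 CPM, or 375, 31 and 49 fragments. Day 4 stood far above both later stages for this pair, which held 15.3 and 13.2 of the group's 31 TPM on that day. ADAMTS9 was at 3.67, 1.82 and 1.13 CPM and fell 3.25-fold [1.67 to 6.8] from day 4 to day 10, a call lost with TPM and with the highest coding sequence alone. ADAMTS4 was at 6.52, 5.72 and 2.92 CPM, short of the threshold. ADAMTS5 had 3, 0 and 11 fragments, at least 4.16-fold higher on day 10 than on day 6, a call lost with TPM.

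The procollagen N-proteinases trim new fibrillar collagen, and after day 6 their low members fell. ADAMTS2, the highest of them in TPM, was at 92, 97.6 and 62 CPM and was 1.58-fold lower [1.43 to 1.74] on day 10 than on day 6. ADAMTS14 was at 9.45, 12.1 and 4.62 CPM and fell 2.62-fold [1.89 to 3.7] after day 6. ADAMTS3 had 20, 15 and 1 fragments, a ratio of 13.2 [2.03 to 556] between days 6 and 10. ADAMTS7, which cuts cartilage oligomeric matrix protein, was at 2.66, 4.4 and 0.471 CPM and fell 9.33-fold [3.76 to 29.9] after day 6. With TPM none of the falls of ADAMTS3, ADAMTS7 and ADAMTS14 after day 6 was past 2-fold. ADAMTSL4, a fibrillin-binding protein with no protease domain, was at 8.9, 5.56 and 12.8 CPM and rose 2.31-fold [1.71 to 3.14] after day 6, a call lost with TPM and with the highest coding sequence alone. Of the 13 measured ADAMTS genes, 0 rose and 5 (38.5%) fell from day 4 to day 10, beside 17.1% and 15.8% of all measured genes. Of these falls, those of ADAMTS3, ADAMTS7 and ADAMTS9 were lost with TPM, with a pseudocount of 5 and with a minimum of 5 CPM. Those of ADAMTS1 and ADAMTS15 were kept. The remaining measured members, ADAM19, ADAMTS6, ADAMTS10, ADAMTS12, ADAMTS16 and ADAMTSL1, had between 4 and 25 fragments per library and were not called in any comparison. Of these, ADAMTSL1 was 3.16-fold higher [0.993 to 13.2] on day 6 than on day 4 from 4 and 14 fragments, and ADAMTS16 was 2.35-fold higher [0.786 to 8.42] from 5 and 13.

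**Figure D4:**
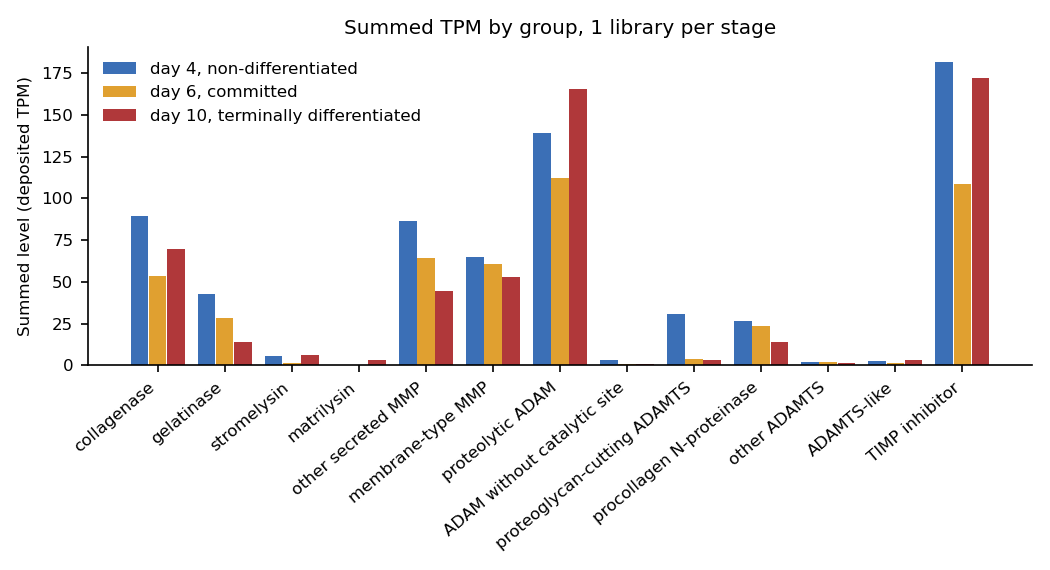
Summed deposited TPM of the members by role on days 4, 6 and 10, with 1 library per bar. Proteoglycan-cutting ADAMTS drop from 31 TPM to 3.6 by day 6, gelatinases from 42.9 to 14.1 by day 10, and TIMPs dip to 108.8 on day 6. In CPM scaled between libraries these sums went from 85.9 to 16.6, from 99.3 to 42.7 and, for TIMPs, from 127 to 94.7.

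TIMP3, which is bound to the matrix and also blocks ADAM17 and several ADAMTS enzymes, was at 33.4, 9.87 and 31.6 CPM, or 364, 119 and 336 fragments. It fell 3.39-fold [2.75 to 4.2] by day 6 and rose 3.21-fold [2.59 to 3.99] after it, so that days 4 and 10 differed by 1.06-fold [0.908 to 1.23]. TIMP1, a soluble inhibitor of most MMPs, was at 22.9, 33.8 and 50.1 CPM and rose 2.18-fold [1.88 to 2.55] from day 4 to day 10. That call was lost with library size alone, with TPM and with a pseudocount of 5. Both coding sequences of TIMP1 had higher counts at each later stage, which adds no separate support. TIMP2 was at 71.1, 51.1 and 67.3 CPM, lowest on day 6, with no step past 2-fold. TIMP2 and TIMP3 were thus both lowest on day 6, while TIMP1 was highest on day 10.

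Summed MMP RNA was 289.1 TPM on day 4, 208.4 on day 6 and 190.2 on day 10, and summed TIMP RNA was 181.6, 108.8 and 172 TPM. In CPM scaled between libraries the MMP sums were 474, 444 and 391, a smaller drop by day 6. The TIMP sums were 127, 94.7 and 149 CPM. The ratio of TIMP to MMP in TPM was 0.628 on day 4, 0.522 on day 6 and 0.904 on day 10. Set against MMP, ADAM and ADAMTS together it was 0.37, 0.31 and 0.459. These ratios lie within a library and do not depend on scaling between libraries. In the RefSeq table the spans of some members overlap those of other coding genes: TIMP1 and SYN1, TIMP3 and SYN3, ADAM17 and IAH1, ADAMTS2 and ZNF354C, ADAMTS6 and CENPK, ADAMTSL4 and MCL1, MMP24 and MMP24OS, MMP28 and C17H17orf50, and ADAM9, ADAMTS12 and MMP19 with genes that have no symbol. Whether their coding sequences share reads was not tested.

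**Figure D5:**
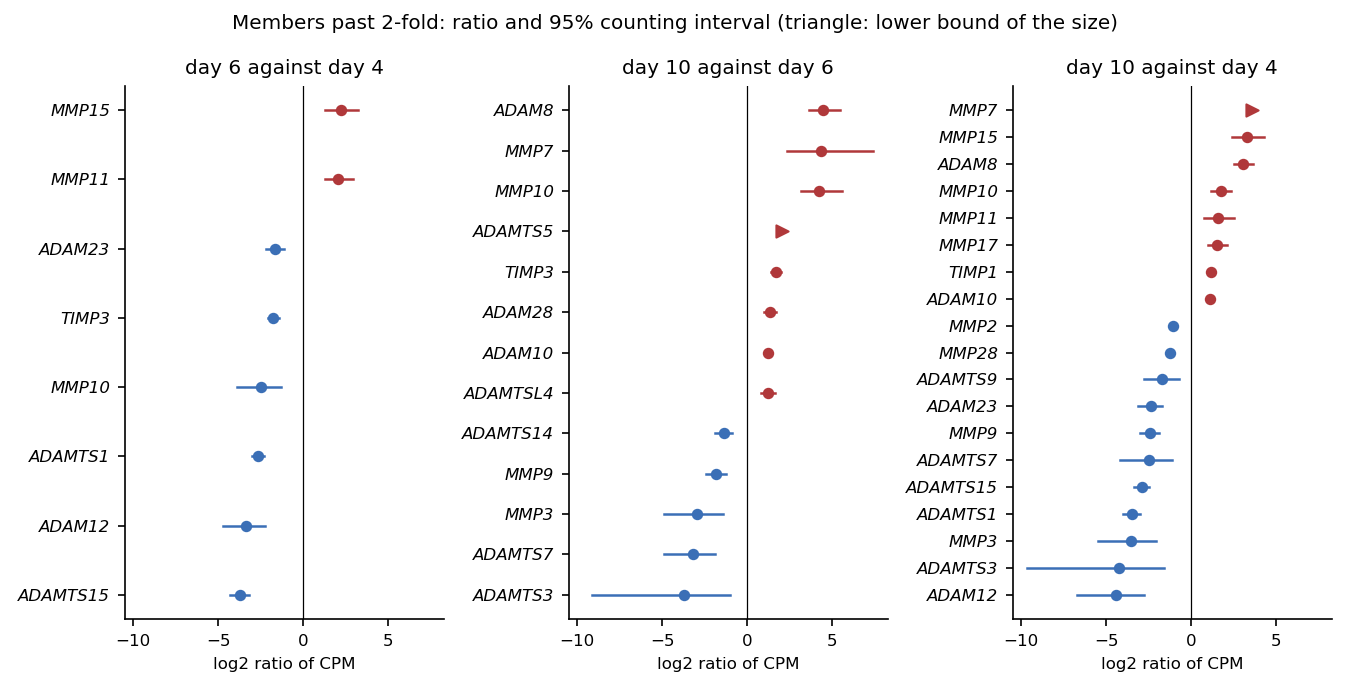
Ratio of CPM on the log2 scale for each member past 2-fold, in the 3 comparisons; lines are 95% counting intervals, triangles lower bounds, red rises and blue falls. ADAMTS3 and MMP7 have wide intervals or a bound only, from 35 fragments or fewer, while those of ADAM10, MMP2 and MMP28 are narrow.

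Activators and surface partners of metalloproteinases were read from a list of 31 genes, 25 of which were measured. By day 6, 1 (4%) rose and 4 (16%) fell, beside 8.06% and 6.73% of all measured genes. After day 6, 4 (16%) rose and 3 (12%) fell, beside 8.25% and 7.1%. Over the whole interval 3 (12%) rose and 6 (24%) fell, beside 17.1% and 15.8%. The urokinase receptor PLAUR, which focuses plasmin formation on the cell surface, was at 124.8, 16.8 and 14.4 CPM and fell 7.41-fold [6.39 to 8.63] by day 6. Urokinase itself, PLAU, was at 411, 299 and 567 CPM, and the tissue plasminogen activator PLAT rose 5.27-fold [4.81 to 5.77] from day 4 to 275 CPM on day 10. PLG, the source of plasmin, had 0 fragments. Among the convertases that open precursors, PCSK7 fell 3.95-fold [3.49 to 4.49] from day 4 to day 10 and FURIN was at 77.9, 79.9 and 40.6 CPM. The syndecans SDC1 and SDC4, surface proteoglycans that metalloproteinases shed, rose 2.22-fold [2.12 to 2.32] and 2.34-fold [2.16 to 2.53] after day 6. SERPINB2 and THBS1 also fell by day 6. The inducer BSG was at 13.6, 23.1 and 19.9 CPM and the membrane inhibitor RECK at 4.13, 2.65 and 2.92 CPM.

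Matrix proteins that these enzymes cut were mostly lower at the end. Of 22 measured genes of a list of 27, 0 rose and 9 (40.9%) fell by day 6, 1 rose and 5 (22.7%) fell after it, and 1 rose and 16 (72.7%) fell over the whole interval (median -1.26 on the log2 scale). Of all measured genes 6.73%, 7.1% and 15.8% fell in these comparisons. The list shares 8 genes with the fibroblast markers, 7 of which fell over the whole interval. VCAN, the versican that ADAMTS1 and ADAMTS15 cut, was at 68.6, 22.1 and 5.56 CPM and fell at both steps, 3.1-fold [2.69 to 3.58] and 3.99-fold [3 to 5.38]. ACAN, the aggrecan core protein, was at 4.68, 1.58 and 1.79 CPM. The riser after day 6 was LAMA3, a laminin chain of epithelial basement membrane, which was at 498, 230.3 and 609 CPM and rose 2.65-fold [2.53 to 2.77] at that step. The riser over the whole interval was COL7A1, the anchoring fibril collagen of epithelial basement membrane, from 53.1 to 171.7 CPM, 3.23-fold [2.94 to 3.55]. COL17A1, a hemidesmosomal collagen that ADAM9, ADAM10 and ADAM17 can shed, was at 2332, 2411 and 3062 CPM.

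Of 33 measured membrane proteins known to be shed by ADAMs (a list of 36), 7 (21.2%) rose and 4 (12.1%) fell by day 6, beside 8.06% and 6.73% of all measured genes. After it 4 (12.1%) rose and 1 (3.03%) fell, beside 8.25% and 7.1%. Over the whole interval 8 (24.2%) rose and 6 (18.2%) fell, beside 17.1% and 15.8%. The TNF receptor TNFRSF1B went from 1.84 to 8.96 to 54.6 CPM, a rise of 29.8-fold [19.1 to 49.1], and the decoy receptor IL1R2 from 0.459 to 15.5 and 13.9 CPM. AREG, an EGF receptor ligand that ADAM17 releases, was at 80.6, 12.9 and 7.63 CPM, and its relatives EREG and HBEGF were at 21.1, 2.07 and 2.07 CPM and at 25.3, 5.06 and 6.4 CPM. NRG1, another released ligand, was at 164.2, 68.4 and 38.3 CPM. These 4 ligands fell by day 6. The ligands TGFA and EGF did not: TGFA was at 11.4, 12.1 and 12.2 CPM and EGF at 1.1, 1.58 and 1.98 CPM.

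Zinc proteases from other families were read from a list of 24, of which 15 were measured. By day 6, 1 (6.67%) rose and 3 (20%) fell, beside 8.06% and 6.73% of all measured genes. After it 4 (26.7%) rose and 1 (6.67%) fell, beside 8.25% and 7.1%. Over the whole interval 3 (20%) rose and 3 (20%) fell, near the shares of 17.1% and 15.8% of all measured genes. ERAP1, which trims peptides for antigen presentation, went from 7.71 to 14.6 to 46.5 CPM and PAPPA, which cuts IGF-binding proteins, from 7.07 to 2.41 to 0.377 CPM. Of 12 measured AP-1 and ETS factors, which are known to act on MMP promoters, 3 (25%) rose and 2 (16.7%) fell by day 6. Of all measured genes 8.06% rose and 6.73% fell by then. After day 6, 2 of the factors (16.7%) rose and 0 fell, beside 8.25% and 7.1%. Over the whole interval 3 (25%) rose and 2 (16.7%) fell, beside 17.1% and 15.8% of all measured genes. FOSL2 was at 17.3, 38.6 and 78.4 CPM and the epithelial ETS factors ELF3 and EHF at 22.8, 65.3 and 228 CPM and at 21.6, 83.2 and 149.5 CPM, highest on day 10. FOSL1 and ETS1 were highest on day 4, at 77.1, 3.82 and 3.11 CPM and at 106.7, 41.4 and 46.3 CPM. JUN and FOS were not called in any comparison.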

How the data were processed

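Total RNA (Trizol) was made into libraries with an Illumina TruSeq kit, per the labels' protocols. The submitters' processing notes name the genome build OryCun2.0. Aligner, counter and strand setting: not given in the sources used here. Per the file headers, the authors made a fragment count for each of 38696 coding sequences. The deposited values are expected counts, made by the authors before deposit, and 45.8% of them are fractional. The deposited TPM values are normalized for length and depth. Protein versions of 1 gene often hold near-equal counts and were not taken as separate measures.

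Fragment counts were summed per gene name, rounded and scaled by the TMM factors of edgeR 4.0.16 in R 4.3.3 (1.071, 0.958 and 0.974 for days 4, 6 and 10). Calls need 1 CPM in 1 library and a 2-fold difference of log2(CPM + 1). The design assumed rounded counts and no test; calls were checked on simulated data. DESeq2 1.42.0 gave alternative size factors. RefSeq's gene table (mOryCun1.1) held 65 of 66 symbols and was used for names, order and overlaps of genes only. Full values are given for 34 members that passed 2-fold in a comparison or reached 10 CPM, and further values were chosen after they were seen. Members and lists were chosen with earlier results of these data known.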

Additional observations from a re-analysis of the deposited data

How the results depend on the processing

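The 11 alternatives covered scaling, pseudocount, minimum level, gene summary, fold threshold and rounding. Of 888 differences of single members recomputed, 828 moved by less than their counting margin, 60 by more, and 0 called ones changed sign. Part of this was fixed in advance. The changes of minimum level leave a single difference as it was, and a changed pseudocount cannot turn its sign. The fold thresholds do not enter this count. The margin is the log2 width of the counting interval divided by 2. The counts of members that rose or fell moved as follows, with the main counts given in the report. With the authors' TPM, 1 member (3.03%) rose by day 6, 1 (3.03%) fell after day 6 and 3 (9.09%) rose over the whole interval. Of all genes measured in TPM, 4.53%, 6.81% and 11.2% did so. With TPM the median of all measured genes was -0.30 by day 6 and -0.31 over the whole interval. With library size alone it was -0.14 and -0.11, and in the main setting 0.00 and 0.01. Relative to all genes, the median of the members after day 6 was 0.18 with TPM and -0.20 in the main setting. A pseudocount of 0.1 gave 6 risers (14%) by day 6, near the 12.1% of all measured genes. A pseudocount of 5 gave 0 risers and 3 fallers (6.98%) by day 6, beside 3.68% and 3.52% of all measured genes. After it there were 4 (9.3%) and 0, beside 4.38% and 3.53%. Over the whole interval there were 3 (6.98%) and 6 (14%), beside 10.3% and 10.3%. A minimum of 5 CPM, which leaves 30 members, gave 2 fallers (6.67%) after day 6 and 7 (23.3%) over the whole interval. Of all genes at that minimum 7.75% and 16.7% fell, and the median of the members after day 6 was 0.29. At 1.5-fold there were 6 risers (14%) and 12 fallers (27.9%) by day 6, beside 19.6% and 18% of all measured genes. There were 12 fallers (27.9%) after it, beside 19.2%, and 13 risers (30.2%) over the whole interval, near the 29% of all. At 4-fold there were 0 and 3 (6.98%) by day 6, beside 1.18% and 0.67% of all measured genes. After it there were 2 (4.65%) and 0, beside 1.68% and 0.25%. Over the whole interval there were 3 (6.98%) and 4 (9.3%), beside 4.7% and 3.09%. The cause of these shifts was not tested beyond the alternative's own construction. No paired analysis was possible because each stage had 1 library. Genes with fewer than about 10 fragments have wide intervals, and depth limits what can be said of them.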
